A study of Mus musculus with 6 samples.

Results

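MYC, MYCL and MYCN are transcription factors that bind DNA paired with MAX, and MAX also pairs with the MXD repressors, with MNT and with MGA. This network and the chromatin factor EP400 were followed here through 9 genes, taken as the rows whose gene name was Myc, Mycl, Mycn, Max, Mga, Mxd1, Mxd4, Mxi1 or Ep400 among the 54532 genes counted. Each name matched 1 gene, and all 9 passed the filter on low counts.

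As background, a MYC-MAX pair binds the E-box CACGTG and recruits activating complexes, and an MXD-MAX pair binds the same letters and recruits histone deacetylases. MGA carries MAX into a Polycomb complex, and EP400 is an ATPase of the TIP60 acetyltransferase complex. In virus-positive Merkel cell carcinoma, the viral small T antigen brings MYCL and MAX together with EP400, and genes of the LSD1 complex have been described as targets of that assembly. In skin, MYC is known for driving keratinocyte progenitors into division and differentiation.

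The data hold 6 Smart-seq2 libraries, each made from 500 sorted, DAPI-negative events of dissociated dorsal-skin epidermis of C57BL/6 mice aged 4 weeks, male and female. In the first group, called NCAM-enriched, 3 libraries hold cells enriched with beads against PSA-NCAM and sorted for NCAM staining, which the labels call Merkel cells, the touch-sensing neuroendocrine cells of the epidermis. The bulk skin group has 3 libraries of cells taken without that selection, and the labels name no transgene and no treatment for either group. Nothing says that the libraries of a group came from separate animals, so p-values measure only the spread between these libraries, which may be technical.

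Library totals ran from 1343190 to 4481830 counts, so that 1 count was worth 0.216 to 0.773 normalised CPM (counts rescaled to a common library size after TMM adjustment). Summed levels of 10 Merkel cell markers were 1569, 1674 and 482 CPM in NCAM-enriched libraries 1, 2 and 3 and 186, 147 and 133 CPM in bulk skin libraries 1, 2 and 3, the order used for every set of values. Suprabasal keratinocyte markers summed to 37217, 14318 and 19261 CPM in the NCAM-enriched libraries against 1567, 1753 and 1752 CPM. T cell markers summed to 1.06, 2.32 and 13.1 CPM against 3218, 3219 and 3511 CPM, with Cd3d, Trdv4, Hcst and Cd2 at 0 in all 3 NCAM-enriched libraries. Langerhans and other myeloid markers summed to 57.2 to 383 CPM against 12240 to 20354 CPM, and red blood cell markers to 3.09 to 23.9 CPM against 747 to 1176 CPM. NCAM-enriched library 2 stood apart in 6 fibroblast markers, which summed to 33003 CPM there and to 363 and 41.7 CPM in libraries 1 and 3, with bulk skin at 13226, 18198 and 10356 CPM. NCAM-enriched library 3 had the lowest Merkel cell sum of its group, and the highest sums of basal keratinocyte markers (9898, 7580 and 31095 CPM against 16552, 14499.9 and 12341 CPM) and of hair follicle markers (12098, 6287 and 28802 CPM against 2351, 2205 and 2854 CPM). Most of the hair follicle sum in the NCAM-enriched libraries came from Krt17 and Krt79 (17761 and 10334 CPM in library 3). Of the 7 hair follicle markers, 3 had a higher and 4 a lower fitted level in the NCAM-enriched group. Both groups held markers of several cell types, and in such samples fewer cells of a type and less RNA per cell cannot be told apart.

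**Figure D1:**
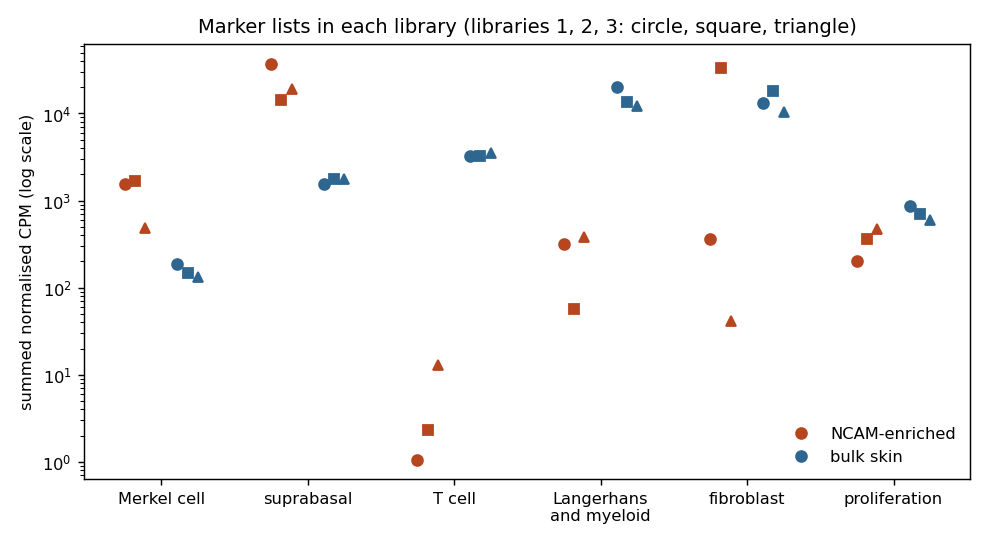
Summed normalised CPM of 6 marker lists in each library on a log axis, with NCAM-enriched libraries in red, bulk skin libraries in blue and libraries 1, 2 and 3 as circle, square and triangle. Merkel cell and suprabasal markers were higher in all 3 NCAM-enriched libraries, and T cell and myeloid markers were lower. The fibroblast sum of NCAM-enriched library 2 (33003 CPM) lay above those of bulk skin (10356 to 18198 CPM).

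The promoter windows of 4 members are shown because they include the pair whose levels did not overlap between the groups (Max and Mycn), the MYC paralogue named in Merkel cell carcinoma (Mycl), and the MXD gene with the highest level in every library (Mxd4). Each window runs 5′ to 3′ on the gene's strand, from 250 bases before to 50 after the annotated start, and comes from RefSeq on GRCm38.p6. Capitals mark the E-box CACGTG, which reads the same on both strands, and the E2F letters TTTGGCGC or TTTCGCGC on either strand. The windows are chr12:12941787-12942086 (minus strand) for Mycn, chr4:122995681-122995980 (plus strand) for Mycl, chr12:76962199-76962498 (minus strand) for Max and chr5:34187661-34187960 (minus strand) for Mxd4.
Mycn: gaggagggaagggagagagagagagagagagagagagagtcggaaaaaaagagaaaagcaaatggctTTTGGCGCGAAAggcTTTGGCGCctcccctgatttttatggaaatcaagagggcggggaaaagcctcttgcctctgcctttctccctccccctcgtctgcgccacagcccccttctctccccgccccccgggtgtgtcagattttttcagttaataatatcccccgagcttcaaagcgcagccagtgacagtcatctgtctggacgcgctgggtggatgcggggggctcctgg
Mycl: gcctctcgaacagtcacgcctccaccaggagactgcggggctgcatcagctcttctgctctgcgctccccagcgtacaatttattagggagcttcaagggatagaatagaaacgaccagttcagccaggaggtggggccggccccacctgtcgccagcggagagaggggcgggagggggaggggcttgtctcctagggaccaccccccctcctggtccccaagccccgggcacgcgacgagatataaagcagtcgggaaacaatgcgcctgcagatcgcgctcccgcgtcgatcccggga
Max: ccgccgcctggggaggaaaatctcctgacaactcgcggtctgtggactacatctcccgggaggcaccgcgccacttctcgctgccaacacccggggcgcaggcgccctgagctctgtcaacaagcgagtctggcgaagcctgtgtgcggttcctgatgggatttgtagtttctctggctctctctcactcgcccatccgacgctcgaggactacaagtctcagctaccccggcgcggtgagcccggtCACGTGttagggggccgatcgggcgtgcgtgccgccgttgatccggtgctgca
Mxd4: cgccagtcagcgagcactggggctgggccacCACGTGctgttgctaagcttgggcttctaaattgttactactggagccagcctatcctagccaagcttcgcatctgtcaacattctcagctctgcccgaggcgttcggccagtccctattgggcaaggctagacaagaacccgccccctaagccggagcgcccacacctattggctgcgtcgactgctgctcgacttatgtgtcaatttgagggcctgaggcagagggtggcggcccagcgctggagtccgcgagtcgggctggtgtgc
The Mycn window held 3 E2F matches, at bases 68 to 75, 72 to 79 and 83 to 90, of which the first and second overlap on opposite strands. The Mxd4 window held 1 E-box at bases 32 to 37, and the Max window held 1 at bases 248 to 253, across the start site. Neither motif was found in the Mycl window. Of 32851 RefSeq promoter windows of this length, 7.15% held the E-box and 0.813% held the E2F letters. In all, 8 members had a window and 10 windows were read, with an E-box in 2 members and E2F letters in 1. A match is a description of letters and not of a bound site. Myc had no window.

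No member passed the test between the groups. Called by edgeR's quasi-likelihood test at an adjusted p of at most 0.05 (Benjamini-Hochberg over 13157 genes) were 0 of 9 members, where 2.59% of all genes tested were called. By DESeq2, 0 of 9 members were called against 12.2% of all genes, and by limma-voom 0 of 9 against 9.12%. At an unadjusted p under 0.05 there was 1 member (Mycn) by edgeR, against 18.9% of all genes, with 2 by DESeq2 (Mycn and Mga) and 1 by limma-voom (Mycn). The groups did not overlap in 2 of 9 members, Max higher and Mycn lower in the NCAM-enriched libraries, against 30.4% of all genes. Mycn passed the filter on low counts through its bulk skin counts alone. The fitted log2 fold change of NCAM-enriched over bulk skin was above 0 for 8 members and below 0 for 1, with a median of 0.41 against -0.07 over all genes tested.

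**Figure D2:**
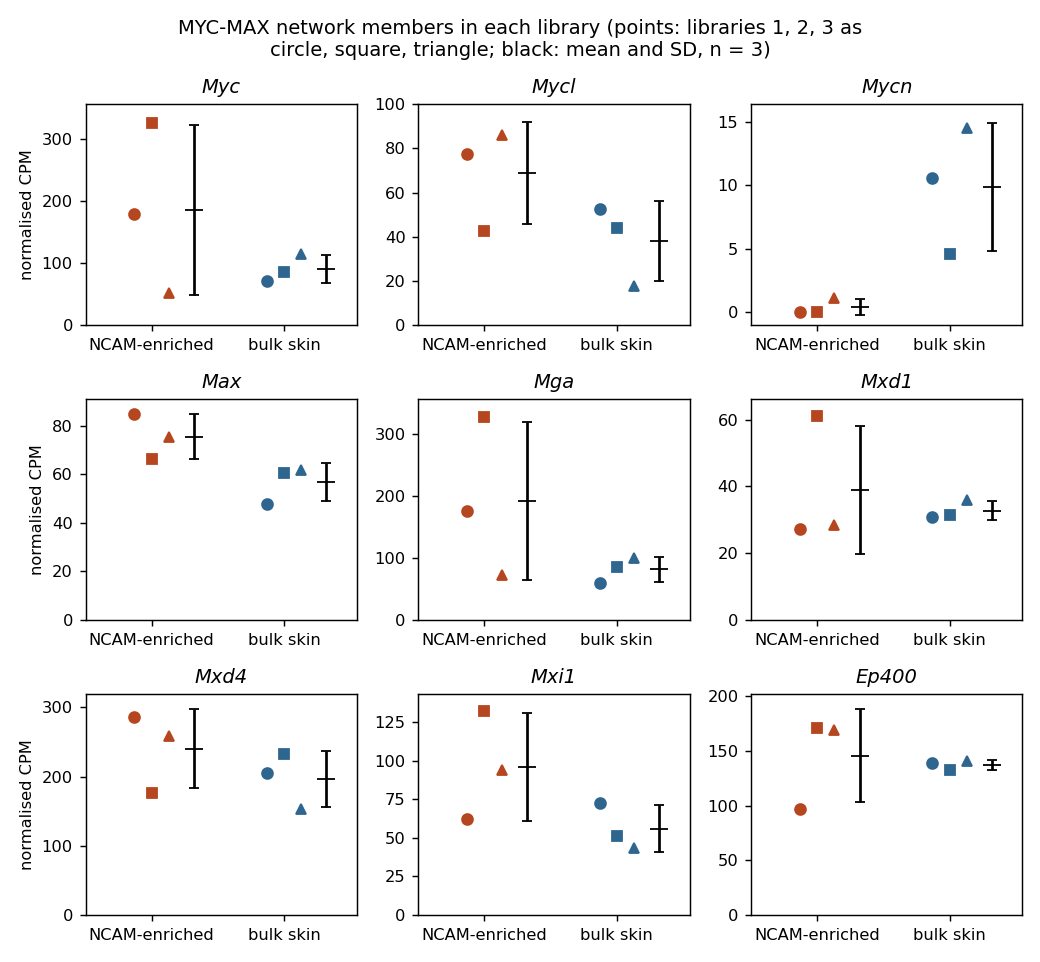
Normalised CPM (linear axis from 0) of each of the 9 members in NCAM-enriched (red) and bulk skin (blue) libraries, with libraries 1, 2 and 3 as circle, square and triangle and the mean and SD of 3 libraries in black. Groups did not overlap for Mycn and Max, and the spread of Myc and Mga among NCAM-enriched libraries ran from 51.1 to 327 CPM and from 72.4 to 328 CPM.

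Myc (chromosome 15, 61985391 to 61990374, plus strand, positions here on GRCm38 from GENCODE M21) encodes the MYC protein itself. It measured 180.1, 327 and 51.1 CPM in the NCAM-enriched libraries and 71.1, 86.0 and 114 CPM in bulk skin. NCAM-enriched library 3 lay below all bulk skin libraries and the other two lay above them, so the groups overlapped. The means were 186 ± 138 and 90.5 ± 21.9 CPM (SD, n = 3 each), with a log2 fold change of 1.04 ± 0.61 (SE; 95% interval -0.34 to 2.41; edgeR adjusted p = 0.413). The difference depended on single libraries. It was 0.33 without NCAM-enriched library 2 and 1.41 without library 3 (adjusted p = 0.0646, with 0.0646 to 0.757 over the 15 alternatives). The highest value, 1.92, came after a trend in exonic length was taken out (edgeR adjusted p = 0.194). That setting also moved the median of all genes from -0.07 to 0.29. Library 2 also stood apart in fibroblast markers, which bulk skin held too, and their part in the Myc difference was not tested.

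Mycl (chromosome 4, 122995652 to 123002485, plus strand) encodes the paralogue that small T binds together with EP400. Its levels were 77.6, 42.5 and 86.0 CPM in the NCAM-enriched libraries and 52.5, 43.9 and 17.8 CPM in bulk skin. Here NCAM-enriched library 2, the highest for Myc, was the lowest of its group and lay among the bulk skin libraries. The means of 68.7 ± 23.1 and 38.1 ± 18.1 CPM gave a log2 fold change of 0.85 ± 0.57 (95% interval -0.43 to 2.14; edgeR adjusted p = 0.475). Across the 15 alternatives the fold change of Mycl stayed between 0.47 and 1.23.

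Mycn (chromosome 12, 12936093 to 12941914, minus strand) encodes the paralogue best known from the embryonic nervous system. It had 0, 0 and 4 counts in the NCAM-enriched libraries and 34, 21 and 53 counts in bulk skin. In CPM these were 0, 0 and 1.14 against 10.6, 4.54 and 14.5, and the groups did not overlap. Mycn was among the genes tested only through bulk skin, the group in which it was higher. Pooled over each group and scaled by library size, the level was 15.7-fold lower in the NCAM-enriched libraries (95% counting interval 5.97 to 58.8). Counting intervals take each read as independent and can be too narrow. Without NCAM-enriched library 3 no count was left in the group, so only a bound can be given. With 3 counts set in place of 0 for the group, that bound was 9.95-fold lower. The lower end of the 95% counting interval gave another bound, 7.95-fold. The fitted log2 fold change was -4.29 ± 1.51 (95% interval -7.72 to -0.86) with an edgeR adjusted p of 0.163, so Mycn was not called. DESeq2 gave an adjusted p of 0.0585 and limma-voom 0.0556, within 0.0542 to 0.388 over the 15 alternatives. Of the marker lists, the T cell, myeloid and red blood cell sums and 8 proliferation genes (201, 362 and 467 CPM against 862, 705 and 596 CPM) were also lower in all 3 NCAM-enriched libraries, and their part in the Mycn difference was not tested.

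Max (chromosome 12, 76937269 to 76962201, minus strand), the obligate partner, was the steadiest of the members within the NCAM-enriched group. It stood at 85.0, 66.4 and 75.2 CPM in the NCAM-enriched libraries and 47.8, 60.5 and 62.0 CPM in bulk skin. Each NCAM-enriched library was above each bulk skin library, by a gap smaller than the spread within either group. The log2 fold change was 0.41 ± 0.40 (95% interval -0.51 to 1.33; edgeR adjusted p = 0.647). Over the 15 alternatives it ran from 0.25 to 0.89, the highest after a trend in exonic length was taken out.

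Mga (chromosome 2, 119897228 to 119969581, plus strand), the MAX partner with a T-box domain, measured 177, 328 and 72.4 CPM in the NCAM-enriched libraries and 59.9, 86.3 and 100.1 CPM in bulk skin. As for Myc, NCAM-enriched library 2 was highest and library 3 the lowest of its group, here among the bulk skin libraries. The log2 fold change was 1.22 ± 0.55 (95% interval -0.02 to 2.46; edgeR adjusted p = 0.270). It was 0.58 without NCAM-enriched library 2 and 1.54 without library 3 (adjusted p = 0.0550, with 0.0550 to 0.582 over the 15 alternatives).

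The 3 MXD genes encode repressors that take MAX from MYC, and are known to be expressed as cells leave division and differentiate. Mxd4 (chromosome 5, 34173883 to 34187720, minus strand) had the highest level of the 3 in every library, in CPM and per kilobase of exon, at 286, 176 and 259 CPM in the NCAM-enriched libraries and 205, 232 and 153 CPM in bulk skin. Mxi1 (chromosome 19, 53310518 to 53375810, plus strand) followed with 62.2, 132 and 93.9 CPM against 72.7, 51.4 and 43.6 CPM. Mxd1 (chromosome 6, 86647042 to 86669161, minus strand) was lowest, with 27.1, 61.0 and 28.4 CPM against 30.7, 31.3 and 35.9 CPM. The groups overlapped for all 3 genes. The log2 fold change of Mxd4 was 0.29 ± 0.36 (95% interval -0.53 to 1.10; edgeR adjusted p = 0.733). That of Mxi1 was 0.78 ± 0.45 (95% interval -0.25 to 1.81; adjusted p = 0.410). That of Mxd1 was 0.24 ± 0.59 (95% interval -1.10 to 1.58; adjusted p = 0.877) and turned to -0.25 without NCAM-enriched library 2. Smart-seq2 does not mark the strand, and 6.06% of the exonic bases of Mxd4 and 2.84% of those of Mxi1 (and 0.852% of those of Ep400) are shared with another annotated gene.

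Ep400 (chromosome 5, 110664373 to 110770717, minus strand) had levels of 96.7, 171 and 169 CPM in the NCAM-enriched libraries and 139, 132 and 141 CPM in bulk skin. Bulk skin libraries were close together, and the NCAM-enriched libraries lay on both sides of them. With means of 146 ± 42.6 and 137 ± 4.61 CPM, the log2 fold change was 0.08 ± 0.36 (95% interval -0.74 to 0.91; edgeR adjusted p = 0.934). Its sign turned under other scalings, to -0.0202 with upper-quartile factors and to -0.0946 after a trend in exonic length was taken out.

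**Figure D3:**
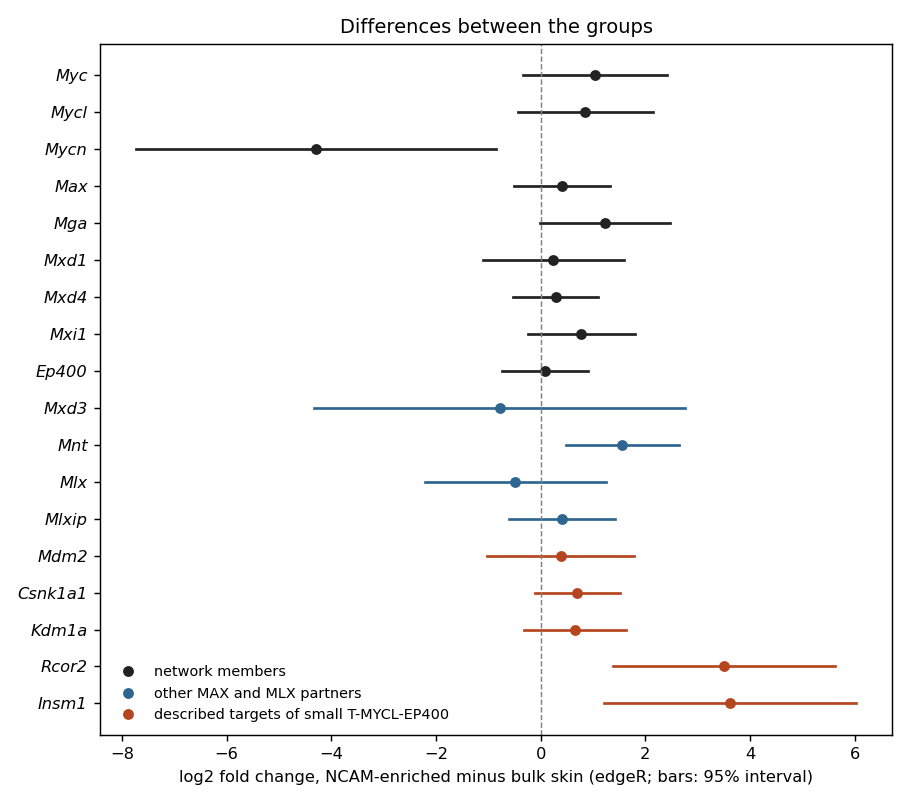
Fitted log2 fold change of NCAM-enriched over bulk skin with its 95% interval (edgeR, 3 libraries a group) for the 9 members in black, 4 other MAX and MLX partners in blue and 5 described targets of the small T-MYCL-EP400 assembly in red. Among members the interval of Mycn alone lay on one side of 0, from -7.72 to -0.86.

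To compare genes with each other, levels were divided by exonic length (CPM per kilobase of all annotated exons of the gene). Per kilobase, Myc was the highest member on average in both groups, at 68.5 ± 50.8 in the NCAM-enriched libraries and 33.3 ± 8.08 in bulk skin. Mxd4 was second (28.3 ± 6.75 and 23.2 ± 4.74) and Max came next (21.0 ± 2.58 and 15.8 ± 2.16). In the NCAM-enriched group there followed Mycl (17.01 ± 5.71), Mxi1 (14.1 ± 5.13), Mga (12.5 ± 8.36), Ep400 (10.4 ± 3.05), Mxd1 (5.49 ± 2.72) and Mycn (0.115 ± 0.199). Neighbours in that order overlapped in their ranges, except Mxd1 and Mycn. In bulk skin the order was Ep400 (9.84 ± 0.330), Mycl (9.43 ± 4.47), Mxi1 (8.19 ± 2.20), Mga (5.35 ± 1.33), Mxd1 (4.62 ± 0.400) and Mycn (2.997 ± 1.53). There, the ranges of Mxd4 and Max and those of Max and Ep400 did not overlap, and all other neighbours did. The order rests on the length used, since all annotated exons count toward it. Per kilobase of coding sequence Mxd4 came first (383 ± 91.3 and 314 ± 64.1), then Max (157 ± 19.4 and 118 ± 16.2) and Myc (137 ± 101 and 66.4 ± 16.1), and Mycn stayed last in both groups.

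As shares of the counts per kilobase of the MYC genes, Mycl and Myc differed more between libraries of 1 group than between the groups, and Mycn did not overlap between them. Mycl made up 22.5%, 8.05% and 52.7% of the 3 MYC genes in the NCAM-enriched libraries and 30.7%, 24.8% and 8.67% in bulk skin. NCAM-enriched library 3, with the lowest Myc, was the only library in which Mycl exceeded Myc, and library 2 held the lowest Mycl share of all 6. Library 3 is also the library with the highest basal and hair follicle sums, and their part in its Mycl share was not tested. The means were 27.7% ± 22.8 and 21.4% ± 11.4 (SD, n = 3 each), a difference of 6.36 percentage points (exact two-sided permutation p = 0.9, and 0.9 after adjustment over 3 such tests). The smallest p that 3 against 3 libraries can give is 0.1. Without NCAM-enriched library 3 the difference was -6.11 points. With each read taken as independent, counting error was small beside this spread. Of raw counts with no length, Mycl was 30.1% (exact 95% binomial interval 26.1 to 34.4) of 485, 11.5% (8.79 to 14.7) of 478 and 62.2% (57.8 to 66.5) of 487 counts in the NCAM-enriched libraries. In bulk skin it was 39.1% (34.5 to 43.9) of 432, 32.6% (29.0 to 36.5) of 622 and 12.1% (9.50 to 15.2) of 535 counts. These intervals cover counting error of reads only. Reads amplified from the same molecule are not independent, so the intervals can be too narrow.

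Myc made up the rest almost alone in the NCAM-enriched group. Its share was 77.5%, 92.0% and 46.5% there and 61.8%, 72.1% and 82.7% in bulk skin. Mycn took 0%, 0% and 0.852% against 7.56%, 3.14% and 8.66%, with no overlap between the groups. A count of 0 allows a share of raw counts of up to 0.619% of 485 and 0.628% of 478 counts in NCAM-enriched libraries 1 and 2.

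**Figure D4:**
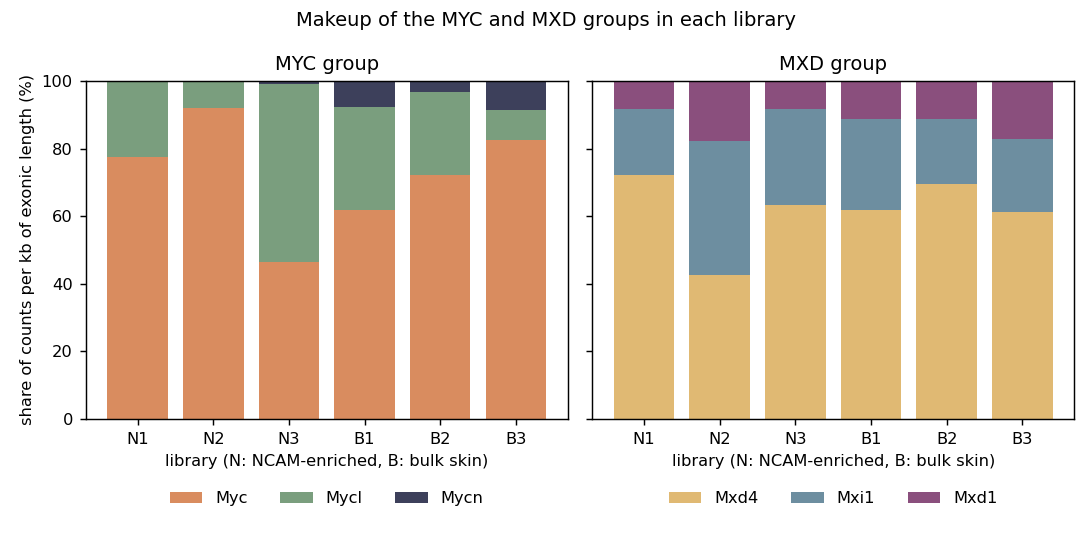
Share of counts per kilobase of exonic length (percent, axis from 0 to 100) taken by Myc, Mycl and Mycn among the MYC genes (left) and by Mxd4, Mxi1 and Mxd1 among the MXD genes (right) in each library (N, NCAM-enriched; B, bulk skin). The Mycl share ran from 8.05% to 52.7% among NCAM-enriched libraries, and the Mycn share was at most 0.852% there and at least 3.14% in bulk skin.

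Among the MXD genes, Mxd4 made up 72.3%, 42.6% and 63.2% per kilobase in the NCAM-enriched libraries and 61.7%, 69.6% and 61.2% in bulk skin. The share of NCAM-enriched library 2 was the lowest of all, where Mxi1 took 39.7% and Mxd1 17.7%. Means of 59.4% ± 15.2 and 64.2% ± 4.71 differed by -4.80 points (exact two-sided permutation p = 0.9, adjusted 0.9), and by 3.59 points without that library. The log2 ratio of the summed MXD to the summed MYC genes per kilobase was -0.87, -1.42 and 0.26 in the NCAM-enriched libraries and -0.11, -0.16 and -0.79 in bulk skin. The summed MXD genes thus exceeded the summed MYC genes in NCAM-enriched library 3 alone by exonic length. By coding length the log2 ratio was above 0 in every library, from 0.90 to 2.27. Other repressors such as Mnt were not part of this ratio. The difference of the mean log2 ratios was -0.33 (exact two-sided permutation p = 0.6, adjusted 0.9), and 0.044 without NCAM-enriched library 2.

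Over the 6 libraries, which share their depth and cell mixture, log2 CPM of Myc and Mga correlated with r = 0.963 and that of Mycl and Mxd4 with r = 0.895, while Myc and Mycl gave r = -0.210. Mycn ran against Max (r = -0.760) and Mga (r = -0.739). These are descriptions of 6 points with no test. The genes most like Myc among those with a mean of at least 20 CPM were Fam126b (r = 0.991), Spock2 (r = 0.990) and Hid1 (r = 0.989). Spock2, for one, had 93.0, 220.2 and 18.4 CPM in the NCAM-enriched libraries and 30.7, 34.4 and 40.0 CPM in bulk skin, the same order of libraries as Myc. Most like Mycl were Dgcr6 (r = 0.987), Nop53 (r = 0.972), a ribosome assembly factor, and Tubb4b (r = 0.971), a tubulin. Dgcr6 had 222, 81.9 and 209 CPM against 134, 90.4 and 35.4 CPM. None of these 6 genes was called.

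Beyond the members, 7 lists of the wider network held 81 genes, of which 79 were tested. By edgeR 0 of 79 were called, against 2.59% of all genes tested, with 18 at an unadjusted p under 0.05, against 18.9%. DESeq2 called 9, against 12.2% of all genes, and limma-voom 3, against 9.12%, so these shares were near or below those of all genes. The same shares of all genes apply to the counts of each list that follows. Where levels of a gene below are said not to overlap, the groups did not overlap in 30.4% of all genes either. The median log2 fold change of the 79 genes was 0.38 against -0.07 over all genes, with 49 above 0, where 47.7% of all genes tested lay above 0. Mlxipl and Rybp did not pass the count filter.

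Of the other genes that pair with MAX or its relative MLX, only Mnt did not overlap between the groups, against 30.4% of all genes. Mnt encodes a repressor that antagonises MYC in resting and dividing cells. Mnt had 69.6, 103 and 58.5 CPM in the NCAM-enriched libraries and 24.8, 26.8 and 26.6 CPM in bulk skin, with no overlap. Its log2 fold change was 1.56 ± 0.48 (95% interval 0.48 to 2.65), which did not pass edgeR's adjusted threshold (adjusted p = 0.112) and passed that of DESeq2 (0.0180, with 0.0180 to 0.349 over the 15 alternatives). Mxd3, an MXD gene of dividing cells, ran from 0 to 12.2 CPM against 1.08 to 21.4 CPM (log2 fold change -0.78 ± 1.56; edgeR adjusted p = 0.849). Mlx, the partner of the glucose-sensing MondoA and ChREBP, gave -0.49 ± 0.76 (adjusted p = 0.798), and Mlxip, which encodes MondoA, 0.40 ± 0.45 (adjusted p = 0.696). Mlxipl, which encodes ChREBP, was at most 3.72 CPM in any library. Of the 4 tested, 2 were above 0 and 2 below, with a median of -0.04, 0 calls by edgeR or limma-voom and 1 at an unadjusted p under 0.05.

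Of the 17 TIP60-EP400 subunits, 10 were above 0 and 7 below, the median log2 fold change being 0.14, with 0 calls by edgeR, DESeq2 or limma-voom. At an unadjusted p under 0.05 there were 1 by edgeR, 2 by DESeq2 and 0 by limma-voom. The 1 by edgeR was Yeats4, a reader of acetylated histones (log2 fold change 1.38 ± 0.58; edgeR adjusted p = 0.237), and its groups overlapped. Kat5, the acetyltransferase of the complex, had 31.9, 34.0 and 25.0 CPM in the NCAM-enriched libraries and 13.04, 14.5 and 14.3 CPM in bulk skin. Those levels did not overlap, but the log2 fold change of 1.12 ± 0.69 gave an adjusted p of 0.436. Morf4l1, a chromodomain subunit, lay the other way without overlap (-0.84 ± 0.55; adjusted p = 0.466). Its relative Morf4l2, of the 17 the one with the highest CPM summed over both group means, differed by 0.17 ± 0.42 (adjusted p = 0.883).

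Of the Polycomb complex that MGA joins, 9 of 10 listed subunits were tested, 5 above 0 and 4 below, with a median of 0.15 and 0 calls by edgeR, DESeq2 or limma-voom. Ring1, a ubiquitin ligase of histone H2A, had 34.0, 98.1 and 47.7 CPM against 18.01, 23.8 and 16.4 CPM (log2 fold change 1.62 ± 0.61; edgeR adjusted p = 0.192). Pcgf6, the subunit that defines this complex, had 0.531, 8.50 and 12.2 CPM against 19.9, 25.3 and 23.3 CPM, lower without overlap (-1.67 ± 1.09; adjusted p = 0.465). Wdr5, the listed subunit with the highest CPM summed over both group means, differed by 0.26 ± 0.48 (adjusted p = 0.830).

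Regulators of MYC protein and transcription lay above 0 in 10 of 12 genes, where 47.7% of all genes did, with a median log2 fold change of 0.98. By edgeR 0 were called, with 5 above and 1 below at an unadjusted p under 0.05 (18.9% of all genes, both directions), and by limma-voom 0. DESeq2 called 3, Huwe1 and Usp36 among them (12.2% of all genes). Huwe1, a ubiquitin ligase that acts on MYC, had 471, 533 and 230 CPM in the NCAM-enriched libraries and 129, 163 and 191 CPM in bulk skin (1.35 ± 0.42; edgeR adjusted p = 0.114; DESeq2 0.0379, with 0.0379 to 0.353 over the 15 alternatives). Usp36, which removes ubiquitin from MYC, gave 1.66 ± 0.53 (adjusted p = 0.129). The ligase subunit Fbxw7 gave 1.23 ± 0.47 (adjusted p = 0.203) and Zbtb17, which encodes the MYC partner MIZ1, 1.58 ± 0.68 (adjusted p = 0.256). Bin1, a MYC-interacting adaptor, lay below 0 (-1.38 ± 0.57; adjusted p = 0.237).

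The 5 genes described as targets of small T, MYCL and EP400 were all above 0, with a median of 0.70, 0 calls by edgeR and 2 at an unadjusted p under 0.05. Rcor2, a CoREST subunit of the LSD1 complex, had 40.9, 43.3 and 23.0 CPM in the NCAM-enriched libraries and 0.931, 4.76 and 3.56 CPM in bulk skin. The fitted log2 difference was 3.50 ± 0.94 (edgeR adjusted p = 0.0795; DESeq2 0.000519, with 0.000519 to 0.292 over the 15 alternatives). Insm1, a neuroendocrine transcription factor, had 40.4, 72.6 and 30.9 CPM against 9.31, 1.51 and 0.823 CPM (3.62 ± 1.06; edgeR adjusted p = 0.0986; DESeq2 0.00381 and limma-voom 0.0342, with 0.00381 to 0.307 over the 15 alternatives). Insm1 is also 1 of the 10 Merkel cell markers, of which 5 were called higher. Csnk1a1, a kinase that curbs p53, had 746, 788 and 522 CPM against 492, 378 and 396 CPM, with no overlap (0.70 ± 0.36; adjusted p = 0.336). Kdm1a, which encodes LSD1, was 144, 97.4 and 62.7 CPM against 63.3, 61.8 and 67.7 CPM and overlapped (0.65 ± 0.43; adjusted p = 0.471). Mdm2, the p53 ligase, gave 0.38 ± 0.62 (adjusted p = 0.805), and -0.54 without NCAM-enriched library 2.

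Genes that MYC is known to induce, in ribosome assembly, nucleotide and polyamine synthesis and cell cycle entry, were split, 12 above 0 and 13 below, with a median of -0.43. By edgeR or limma-voom 0 of 25 were called, and DESeq2 called 1, Srm, where it called 12.2% of all genes. At an unadjusted p under 0.05 by edgeR (18.9% of all genes), 4 lay below 0 (Srm, Mcm4, Nme1 and Hspe1) and 1 above (Mybbp1a). Srm, the spermidine synthase, had 72.8, 67.2 and 51.6 CPM in the NCAM-enriched libraries and 165, 166 and 122 CPM in bulk skin (log2 fold change -1.24 ± 0.37; edgeR adjusted p = 0.102). Mcm4, a helicase subunit of DNA replication, gave -1.78 ± 0.62 (adjusted p = 0.158), Nme1, a nucleoside diphosphate kinase, -1.22 ± 0.42 (0.156) and Hspe1, a mitochondrial chaperonin, -1.41 ± 0.49 (0.159). Mybbp1a, a nucleolar protein, gave 1.04 ± 0.41 (0.211). Ccnd2, a cyclin of cell cycle entry and the gene of the list with the highest CPM summed over both group means, ran from 298 to 892 CPM against 819 to 1354 CPM (-0.89 ± 0.48; adjusted p = 0.373). Beside these, all 8 proliferation markers lay below 0 with 0 called by edgeR, 4 at an unadjusted p under 0.05, 0 by limma-voom and 1, Pcna, by DESeq2, and their part was not tested.

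Genes that MYC is known to repress lay above 0 in 5 of 7 (47.7% of all genes), with a median of 0.62, 0 calls by edgeR and 2 at an unadjusted p under 0.05 (18.9% of all genes). Those were the inhibitors of cyclin-dependent kinases Cdkn1a (p21) and Cdkn2b (p15), which DESeq2 and limma-voom called, where they called 12.2% and 9.12% of all genes. Cdkn1a had 2071, 835 and 1945 CPM in the NCAM-enriched libraries and 454, 658 and 494 CPM in bulk skin. No libraries overlapped, and its log2 fold change was 1.595 ± 0.47 (edgeR adjusted p = 0.0980; DESeq2 0.00847 and limma-voom 0.0282, with 0.00847 to 0.351 over the 15 alternatives). Cdkn2b had 73.3, 33.2 and 16.2 CPM against 0, 3.03 and 0 CPM (5.22 ± 1.58; edgeR adjusted p = 0.108). The suprabasal keratinocyte and hair follicle sums were likewise higher in all 3 NCAM-enriched libraries. By edgeR (2.59% of all genes called), 7 of 10 suprabasal markers were called higher and, of 7 hair follicle markers, 1 higher and 1 lower. Of the hair follicle markers 3 lay above 0 and 4 below, with a median of -0.50, and Krt17 and Krt79 made up most of the sum. The part of these lists in the levels of Cdkn1a and Cdkn2b was not tested.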

How the data were processed

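The authors deposited raw read counts per gene for 6 libraries, without normalization. According to their methods, adapters and polyA were clipped with bbduk, abundant sequences removed with bbmap, reads aligned to GRCm38 with STAR and counted with featureCounts. The annotation release was not given in the sources used here, nor was the strand setting. Counts were fitted with edgeR 4.0.16 under R 4.3.3 (filterByExpr, TMM, quasi-likelihood F-test) over all 13157 genes passing the filter. SE is the absolute log2 fold change over the square root of F. Exonic lengths and positions came from GENCODE M21, which held 54495 of 54532 gene IDs. Family shares were compared with exact permutation tests (scipy 1.17.1). Alternatives were DESeq2 1.42.0, limma-voom (limma 3.58.1), RLE and upper-quartile factors, filters of at least 1 count and of 10 counts in 3 libraries, robust dispersion, a block for the replicate number, leaving out each library and, chosen after seeing the data, removing the trend in exonic length. The members and lists were chosen with earlier results of these data known. Named were the members, all MAX and MLX partners and small T-MYCL-EP400 targets, the uncalled gene of highest CPM in each other list (no gene of those was called), and the 3 genes most like Myc and Mycl. Usp36, Fbxw7, Zbtb17, Bin1, Yeats4, Kat5, Morf4l1, Ring1, Pcgf6, Srm, Mcm4, Nme1, Hspe1, Mybbp1a, Cdkn2b, Gadd45a and Pcna were named after their values were seen. The values of 1 listed MYC regulator are not reported here. Replicate numbers were not treated as pairs.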

Additional observations from a re-analysis of the deposited data

How the results depend on the processing

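No member was called under any of the 15 alternatives, 7 of 9 kept the sign of their fold change, and of 46 named genes 11 were called under at least 1 alternative. The common biological coefficient of variation was 0.744. Interval widths followed the F statistic of each gene, with an SE from 0.36 (Mxd4) to 1.51 (Mycn) among members. Genes called higher across the whole table numbered 137, with 661 by DESeq2, 351 by limma-voom, 769 with all genes of at least 1 count, 286 after removal of the length trend, 50 with the replicate block and 0 to 1099 with 1 library left out (1099 without NCAM-enriched library 3). Genes called lower numbered 204, with 928, 849, 741, 213, 92 and 13 (without bulk skin library 1) to 733 (without NCAM-enriched library 3) in the same settings. The 0 higher calls came without bulk skin library 1 or 2, where 2115 and 2237 genes had an unadjusted p under 0.05. Network genes outside the members called higher were 0, with 8 by DESeq2, 3 by limma-voom, 3 with all genes of at least 1 count, 1 with the length trend removed and 0 to 3 with 1 library left out, and 1 was called lower by DESeq2. Without NCAM-enriched library 3, Rcor2, Huwe1, Gadd45a, Spock2 and Pcna were called, and without library 2, Cdkn1a. Over all genes the median fold change (log2) moved from -0.07 to -0.37 by limma-voom, -0.36 with the block and 0.29 with the length trend removed.

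Signs turned for Mxd1 (limma-voom -0.00599, -0.25 to 0.43 with 1 library left out), Ep400 (upper-quartile -0.0202, at least 1 count -0.018, length trend -0.0946, -0.11 to 0.30), Mxd3 (-2.21 to 0.45), Mlx (length trend 0.11, -1.03 to 0.0374), Mdm2 (limma-voom -0.19, -0.54 to 0.66) and Morf4l2 (limma-voom -0.0128, -0.28 to 0.32), and the cause was not tested. With 1 library left out the difference in the Mycl share ran from -6.11 to 16.2 points, that in the Mxd4 share from -11.2 to 3.59 points and that in the log2 ratio of MXD to MYC genes from -0.80 to 0.044. Deviations of libraries with the same replicate number correlated at 0.0226, 0.000250 and -0.00436. With 3 libraries a group that differed in cell mixture, these values cannot tell whether equal numbers share an animal, and the labels do not say. The replicate block left all 9 members uncalled.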
